A study of Mus musculus with 6 samples.

Results

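The genes described here encode the nuclear-encoded subunits of the mitochondrial respiratory chain and ATP synthase (complexes I to V), in the liver of fasted mice with and without Acss2. They were chosen by symbol and gene type: a protein-coding gene whose symbol begins with Nduf, Uqcr, Atp5 or Cox followed by a digit from 4 to 8, or is Sdha, Sdhb, Sdhc, Sdhd, Cyc1 or Cycs. A total of 86 of the 12366 listed genes met this rule. Of these, 75 are structural subunits and 11 are not: 8 assembly factors of complex I (Atp5sl, Ndufaf1 to Ndufaf7), Cox7a2l, Atp5s and the electron carrier Cycs. Ndufa4, named after complex I, is counted with complex IV, where its protein sits. One further row, the processed pseudogene Atp5k-ps2, matched the symbols and was left out.

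All mice were C57BL/6 males on a chow diet, aged 22 weeks and fasted for 48 h before the liver was frozen. The 3 WT libraries came from wild type mice and the 3 Acss2-KO libraries from Acss2-/- mice, which lack the enzyme that makes acetyl-CoA from acetate in the cytosol and nucleus. The labels name no promoter or Cre. They do not say which animal gave which library, and the spread behind each p-value may therefore be partly technical. Levels are CPM, reads per 1000000 reads of the library, and carry no correction for gene length unless stated.

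Complexes I and II take electrons from NADH and succinate to coenzyme Q. Complex III passes them through cytochrome c to complex IV, which reduces oxygen, and complex V makes ATP from the resulting proton gradient. Most subunits are encoded in the nucleus, a few in mitochondrial DNA, and each complex is put together with the help of assembly factors that are not part of the finished enzyme. In the fasted liver the chain reoxidizes the NADH and FADH2 made by fatty acid oxidation, and its nuclear genes are classic targets of the factors NRF1, GABP, YY1 and CREB.

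The promoter sequences of these genes were searched for motifs of the 4 factors. RefSeq windows (GRCm38.p6, 250 bases before to 50 after the annotated start) were found for 72 of the 86 genes and for 27025 genes in all. The NRF1 motif, searched as GCGCANGCG on both strands, stood in 22 of the 72 windows (30.6%) and in 7.03% of all windows. The core of the ETS family motif that GABP binds, CCGGAAG, stood in 17 (23.6%) against 9.93%. The YY1 motif AANATGGCG stood in 11 (15.3%) against 2.76%, and the CREB motif TGACGTCA in 5 (6.94%) against 2.03%. At least 1 of the 4 motifs was present in 45 of 72 windows (62.5%), compared with 18.6% of all windows, and 27 windows had none. A match describes the letters in the window and is not a measured binding site. The windows of all genes were not limited to genes measured here, nor matched for base content. The higher shares are therefore not shown to be particular to the respiratory chain.

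The stretches of 80 bases below show such matches upstream of 2 assembly factors that changed in opposite directions, of a complex III subunit that fell, of the cytochrome c gene and of a complex II anchor subunit. They are written 5′ to 3′ on the strand of the gene, with motif matches in capitals. Ndufaf4 (chr4:24897934-24898013, plus strand) and Sdhd (chr9:50603885-50603964, minus strand) hold an NRF1 match, and Sdhd also holds an ETS match in reverse. Ndufaf1 (chr2:119662835-119662914, minus strand) and Uqcr11 (chr10:80406844-80406923, minus strand) hold an ETS match, and Cycs (chr6:50566695-50566774, minus strand) a CREB match. Uqcr11 and Cycs are also among the genes with an NRF1 match, which lies outside the stretch shown. The capitals end 104 bases before the annotated start in Ndufaf4, 11 in Ndufaf1, 59 in Uqcr11 and 161 in Cycs.
Ndufaf4: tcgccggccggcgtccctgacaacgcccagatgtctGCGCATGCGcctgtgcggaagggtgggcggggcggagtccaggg
Ndufaf1: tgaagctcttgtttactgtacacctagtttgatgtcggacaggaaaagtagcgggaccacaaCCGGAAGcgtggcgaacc
Uqcr11: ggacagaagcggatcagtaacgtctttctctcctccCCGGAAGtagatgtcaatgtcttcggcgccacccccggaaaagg
Cycs: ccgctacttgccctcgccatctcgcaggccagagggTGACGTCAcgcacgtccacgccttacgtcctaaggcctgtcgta
Sdhd: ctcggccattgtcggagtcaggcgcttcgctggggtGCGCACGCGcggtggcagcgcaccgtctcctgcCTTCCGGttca

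The genotype labels were checked on Acss2 itself, which was at 74.0, 81.0 and 73.5 CPM in WT replicates 1 to 3 and at 1.37, 3.56 and 2.35 CPM in Acss2-KO replicates 1 to 3. Estimated depth was 21.8 to 30.8 M reads (M, 1000000) per library, so that 5 CPM, the minimum mean level for a test, was 109 to 154 reads. The tissue label was met by hepatocyte markers, whose 6 genes summed to between 93955 and 113054 CPM in every library. Of these 6 genes 2 fell, Ttr (log2 fold change -1.80 ± 0.24, adjusted p = 0.0015) and Cyp2e1 (-1.07 ± 0.27, adjusted p = 0.015), and none rose. Of the markers of other cells, all 5 erythroid genes fell (162 to 280 CPM in sum in WT, 41.2 to 67.0 in Acss2-KO). Kupffer and macrophage genes fell in 4 of 9 cases (209 to 620 against 108 to 180 CPM in sum). Sinusoidal endothelial genes rose in 2 and fell in 1 of 6 cases. The stellate markers had 1 fall among 4 tested genes, and the cholangiocyte markers 1 rise and 1 fall among 2. Their part in the results below was not tested, and in bulk liver fewer cells of a type and less RNA per cell cannot be told apart.

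Of the 86 genes, 84 had a mean of at least 5 CPM and were tested between genotypes (limma on log2(CPM + 1), Benjamini-Hochberg adjusted p under 0.05 over all 9355 tested genes). Cox6a2 and Ndufaf5 were below that level. In Acss2-KO liver 1 gene rose, Ndufaf4, and 7 fell: Ndufaf1, Ndufs8, Ndufaf3, Ndufaf7, Uqcr11, Ndufv3 and Atp5sl. That is 9.52% of the 84, whereas 36.5% of all tested genes changed (13.4% higher and 23.1% lower). After median-of-ratios scaling 2 of the 84 were higher and 5 lower, beside 18.1% and 18.9% of all tested genes. In the authors' deposited table only Ndufaf1, Ndufaf4, Cycs and Cox6a2 of the 86 had an adjusted p under 0.05. Of all listed genes 12.5% passed there with a positive and 14.7% with a negative log2 fold change. Ndufs8, Ndufaf3, Ndufaf7, Uqcr11, Ndufv3 and Atp5sl did not pass there. Among the 74 tested structural subunits none rose and 3 fell (4.05%), and at an unadjusted p under 0.05 there were 8. Of all 9355 tested genes 4457 had an unadjusted p under 0.05. Among the 10 other tested genes 1 rose and 4 fell.

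The median SE of the log2 fold change was 0.20 for structural subunits and 0.20 for all tested genes. For 62 of the 74 structural subunits (83.8%) the 95% interval of the change lay within 2-fold in both directions, against 56.2% of all tested genes. The median log2 fold change was -0.19 for structural subunits and -0.12 for all tested genes. The all-gene median depends on the scaling: it was -0.01 after median-of-ratios scaling, so fold changes here are best read against -0.12. The 3 Acss2-KO libraries lay entirely below the WT libraries for 25 of the 84 genes and above them for 10, against 32.8% and 20.1% of all tested genes.

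**Figure D1:**
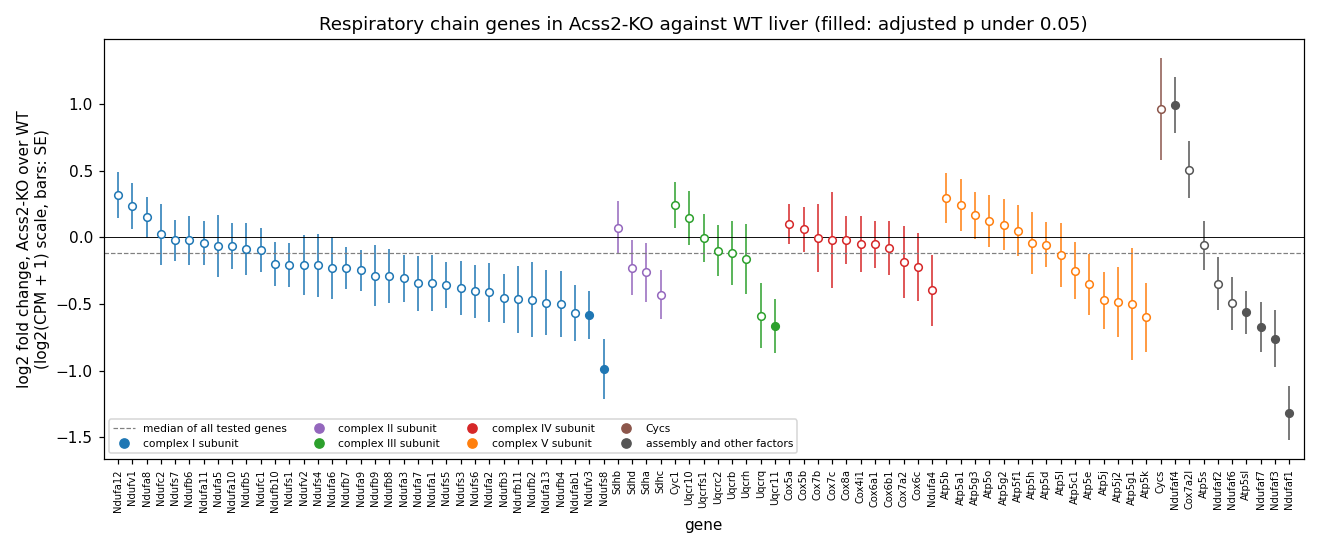
Log2 fold change of Acss2-KO over WT (vertical axis, log2(CPM + 1) scale) for 83 of the 84 tested genes (horizontal axis), coloured by complex, with bars of 1 SE and the median of all tested genes as a dashed line. Only Ndufs8, Ndufv3 and Uqcr11 are filled among the structural subunits, while 5 of the assembly and other factors are filled.

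Complex I, the NADH dehydrogenase, had 36 tested nuclear subunits with a median log2 fold change of -0.24. None rose, 2 fell, and the Acss2-KO libraries were all lower for 15 and all higher for 2, beside 32.8% and 20.1% of all tested genes. The 7 core subunits carry the flavin and the iron-sulfur clusters. Among them Ndufs8 (chromosome 19, 3908870 to 3912717), which holds iron-sulfur clusters close to the site of coenzyme Q, was at 52.0, 55.7 and 83.3 CPM in WT and 25.6, 38.1 and 30.3 CPM in Acss2-KO. Every Acss2-KO library lay below every WT library, with WT replicate 3 the highest. The log2 fold change was -0.99 ± 0.23 (SE, adjusted p = 0.011), and the call held under each of the 17 alternatives tried. In the authors' deposited table Ndufs8 did not have an adjusted p under 0.05.

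The other core subunits described here did not pass the test. Ndufv1, which binds the flavin and NADH, was at 146, 144 and 121 CPM against 160, 168 and 155 CPM, with all Acss2-KO libraries above WT (log2 fold change 0.24 ± 0.17, adjusted p = 0.30). Ndufs3 was at 113, 110 and 117 CPM in WT and 111, 68.6 and 85.0 CPM in Acss2-KO, with replicates 2 and 3 below WT. Ndufs1, Ndufs7 and Ndufv2 had log2 fold changes between -0.21 and -0.02.

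The 29 accessory subunits stabilize the core. Ndufv3, bound to the NADH-oxidizing end, was at 64.4, 63.1 and 65.8 CPM in WT and 35.0, 51.3 and 43.1 CPM in Acss2-KO. The WT libraries lay within 3 CPM of each other and above every Acss2-KO library (log2 fold change -0.59 ± 0.18, adjusted p = 0.032). That call was lost without any single WT library, and without Acss2-KO replicate 1 or 3 (adjusted p 0.063 to 0.099), and after each rescaling (0.060 to 0.066). Ndufab1, the acyl carrier protein, was at 48.8, 39.4 and 44.9 against 23.1, 39.1 and 28.4 CPM (adjusted p = 0.063). The largest positive value was that of Ndufa12, at 16.7, 16.7 and 21.3 against 25.5, 22.6 and 20.4 CPM (log2 fold change 0.31 ± 0.17, adjusted p = 0.18), and its groups overlapped.

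Of the 7 tested assembly factors of complex I under the symbol rule 1 rose and 4 fell, beside 13.4% and 23.1% of all tested genes. Their median log2 fold change was -0.56, against -0.24 for the subunits of complex I. This difference between the sets was not tested. Ndufaf1 (chromosome 2, 119655446 to 119662827), which helps to build the membrane arm, was at 22.5, 23.6 and 22.8 CPM in WT and 8.40, 11.5 and 6.59 CPM in Acss2-KO. The WT libraries lay close together and above every Acss2-KO library (log2 fold change -1.32 ± 0.20 (SE), adjusted p = 0.0024). Ndufaf4 (chromosome 4, 24898083 to 24905001), which works with Ndufaf3 on the coenzyme Q module, went the other way. It was at 20.5, 17.4 and 24.9 CPM in WT and 46.5, 32.9 and 49.5 CPM in Acss2-KO, again without overlap (log2 fold change 1.00 ± 0.21, adjusted p = 0.0078). The calls of Ndufaf1 and Ndufaf4 held under all alternatives that kept them in the test, with adjusted p up to 0.017 and 0.041.

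Ndufaf3, the partner of Ndufaf4, was at 12.9, 14.4 and 16.3 CPM in WT and 7.11, 11.2 and 6.68 CPM in Acss2-KO (log2 fold change -0.76 ± 0.21, adjusted p = 0.024). So the 2 partners differed in the sign of their change. Ndufaf3 overlaps Impdh2 in the deposited coordinates, and the sources used here do not give the strand setting of the counting. Its call was lost without WT replicate 2 or 3, and without Acss2-KO replicate 1 or 3 (adjusted p 0.058 to 0.101), and after 3 of the 4 rescalings (0.051 to 0.068).

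Ndufaf7, a mitochondrial methyltransferase, was at 15.6, 14.8 and 16.5 CPM in WT and 7.67, 11.96 and 9.0 CPM in Acss2-KO (adjusted p = 0.023). Atp5sl, which despite its name serves the distal membrane arm of complex I, was at 41.4, 31.8 and 36.5 CPM against 23.9, 23.6 and 25.5 CPM (adjusted p = 0.026). Neither gene had overlapping groups. The Ndufaf7 call was lost without any single WT library and without Acss2-KO replicate 1 or 3 (adjusted p 0.053 to 0.087). It was also lost after quantile normalization, with adjusted p up to 0.113 over the alternatives. The Atp5sl call was lost without replicate 1 of either genotype or Acss2-KO replicate 3 (adjusted p 0.061 to 0.110). Ndufaf2 and Ndufaf6 had log2 fold changes of -0.35 and -0.50 and did not pass the test. Ndufaf5, below the level for a test, was at 2.71, 3.34 and 5.13 CPM in WT and 1.40, 2.27 and 1.74 CPM in Acss2-KO.

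Complex II, succinate dehydrogenase, is encoded wholly in the nucleus, and none of its 4 genes passed the limma test. At an unadjusted p under 0.05 there was 1 (Sdhc), beside 4457 of all 9355 tested genes. The flavoprotein gene Sdha was at 545, 553 and 370 CPM in WT and 375, 434 and 396 CPM in Acss2-KO. WT replicate 3 was the lowest of the 6, below all Acss2-KO libraries, so the groups overlapped. The iron-sulfur gene Sdhb was at 158, 158 and 223 CPM against 194, 187 and 177 CPM, with WT replicate 3 the highest of the 6. The membrane anchor gene Sdhc was at 185, 177 and 183 CPM in WT and 115, 157 and 136 CPM in Acss2-KO, with no overlap (log2 fold change -0.43 ± 0.18, adjusted p = 0.094). The summed CPM of the 4 genes was 1135, 1128 and 1123 in WT and 906, 1030 and 937 in Acss2-KO. These sums did not overlap, with the WT sums within 12 CPM of each other (exact permutation test, two-sided p = 0.10, the smallest that 3 against 3 libraries allow). WT replicate 3 reached its sum with less Sdha and more Sdhb and Sdhd than the other WT libraries. The nuclear sums of complex I did not overlap either (2931, 2830 and 3816 CPM in WT, 2644, 2805 and 2642 in Acss2-KO). Those of complexes III, IV and V overlapped.

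Complex III, the cytochrome bc1 complex, had 8 tested subunits with a median log2 fold change of -0.11, of which 1 fell. Uqcr11, its small accessory subunit, was at 117, 115 and 168 CPM in WT and 76.1, 92.4 and 79.9 CPM in Acss2-KO. All Acss2-KO libraries lay below WT (log2 fold change -0.66 ± 0.20, adjusted p = 0.031). Without WT replicate 3 the log2 fold change was -0.49 (adjusted p = 0.046). The call was lost without WT replicate 1 or 2, and without Acss2-KO replicate 1 or 3 (adjusted p 0.050 to 0.110), and after each rescaling (0.071 to 0.079). Cyc1, the catalytic cytochrome c1 subunit, had the largest positive value: 197, 194 and 197 CPM in WT and 258, 223 and 218 CPM in Acss2-KO (log2 fold change 0.25 ± 0.17, adjusted p = 0.29). Its groups did not overlap. Uqcrq was at 252, 244 and 425 CPM against 186, 215 and 191 CPM, also without overlap (adjusted p = 0.088).

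Cytochrome c, which carries electrons from complex III to complex IV, is encoded in somatic tissue by Cycs (chromosome 6, 50562563 to 50566538). It was at 42.2, 81.0 and 145 CPM in WT and at 153, 158 and 155 CPM in Acss2-KO. The Acss2-KO libraries lay within 5 CPM of each other and above all WT libraries, which were spread more than 3-fold. The log2 fold change was 0.96 ± 0.38 and did not pass the test (adjusted p = 0.082). It was 1.39 without WT replicate 3 and then passed (adjusted p = 0.021), but 0.52 without WT replicate 1. It passed in 2 of 17 alternatives, with adjusted p up to 0.375. In the authors' deposited table its adjusted p was 0.038. Hccs, which attaches haem to cytochrome c, rose from 10.4, 8.69 and 10.7 CPM to 15.5, 12.5 and 15.4 CPM (adjusted p = 0.048). Hccs was named after its values were seen, and its call was lost without any single WT library and without Acss2-KO replicate 1 or 3 (adjusted p up to 0.341 over the alternatives).

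Complex IV, cytochrome c oxidase, had no gene past the limma test among 11 tested nuclear subunits, and their log2 fold changes ran from -0.40 (Ndufa4) to 0.10 (Cox5a) with a median of -0.05. At an unadjusted p under 0.05 there were 0 as well, beside 4457 of all 9355 tested genes. Cox4i1 was at 335, 307 and 449 CPM in WT and 372, 329 and 340 CPM in Acss2-KO. The genotypes overlapped for 10 of the 11 genes. In Ndufa4, WT replicate 3 (488 CPM) stood above the other 5 libraries, which ran from 228 to 261 CPM. Cox7a2l, counted here as a supercomplex factor and not as a subunit, was at 114, 105 and 71.5 CPM in WT and 146, 121 and 140 CPM in Acss2-KO (log2 fold change 0.51 ± 0.21, adjusted p = 0.091). Supercomplexes were not measured. Every Acss2-KO library lay above every WT library, and WT replicate 3 was the lowest. It passed the test after each of the 4 rescalings (adjusted p 0.030 to 0.037) and in none of the other 13 alternatives (adjusted p up to 0.223). Without WT replicate 3 its log2 fold change was 0.31 (adjusted p = 0.14).

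Of the isoform pair Cox6a1 and Cox6a2, the first was measured throughout and the second hardly at all. Cox6a1 was at 236 to 278 CPM in the 6 libraries. Its striated muscle counterpart Cox6a2 was listed at 0 on the log2 scale, the floor of 1 CPM, in 5 libraries and was at 2.91 CPM in Acss2-KO replicate 1. The authors' deposited table gives it a log2 fold change of 4.25 with an adjusted p of 3.4e-10. The 4 detected muscle markers (Acta1, Ckm, Mb and Tnnt3) summed to 321 CPM in that library and to 4.0 to 7.66 CPM in the other 5. The part of the muscle markers in the Cox6a2 value was not tested.

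Complex V, the ATP synthase, also had no subunit past the limma test among 15, with a median log2 fold change of -0.06. At an unadjusted p under 0.05 there was 1 (Atp5k), beside 4457 of all 9355 tested genes. The catalytic head genes Atp5b and Atp5a1 were the most abundant of the 86. Atp5b was at 1351, 1287 and 1152 CPM in WT and 1574, 1531 and 1541 CPM in Acss2-KO, without overlap (log2 fold change 0.30 ± 0.19, 95% interval -0.12 to 0.72, adjusted p = 0.23). Atp5a1 was at 1082, 1067 and 891 CPM against 1305, 1152 and 1136 CPM, also without overlap. The membrane gene Atp5k was at 56.1, 51.3 and 90.5 CPM in WT and 33.8, 54.9 and 39.1 CPM in Acss2-KO, which overlap (log2 fold change -0.60 ± 0.26, adjusted p = 0.099).

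The c ring, through which protons pass, is made from 3 genes that encode the same mature protein. Per kb of transcript, Atp5g3 gave 57.8% to 71.2% of the c ring CPM over the 6 libraries, Atp5g2 19.2% to 23.5% and Atp5g1 5.49% to 19.5%. Atp5g3 was at 407, 388 and 399 CPM in WT and 468, 446 and 428 CPM in Acss2-KO. Atp5g1 was at 43.1, 73.5 and 130 CPM in WT and 34.8, 74.5 and 55.3 CPM in Acss2-KO. It varied more than 2-fold within each genotype, and its 95% interval was the widest of the subunits described here (-1.48 to 0.49 on the log2 scale).

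The levels ranged widely between subunits once length was taken into account. Per kb of transcript, and as means of the 6 libraries, Atp5b had 734 CPM per kb, Atp5g3 588, Ndufa4 587 and Cox4i1 523. Ndufb2, with 9.09 CPM per kb, was the lowest tested subunit, and Ndufa11 followed with 14.9. Both lengths come from annotations with long transcripts (2413 and 2661 nt), so these low values depend on the transcript models. The read counts of 16 of the 86 genes may be shared with an overlapping listed gene, such as Atp5j with Gabpa and Atp5o with Itsn1, Donson and Cryzl1.

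**Figure D2:**
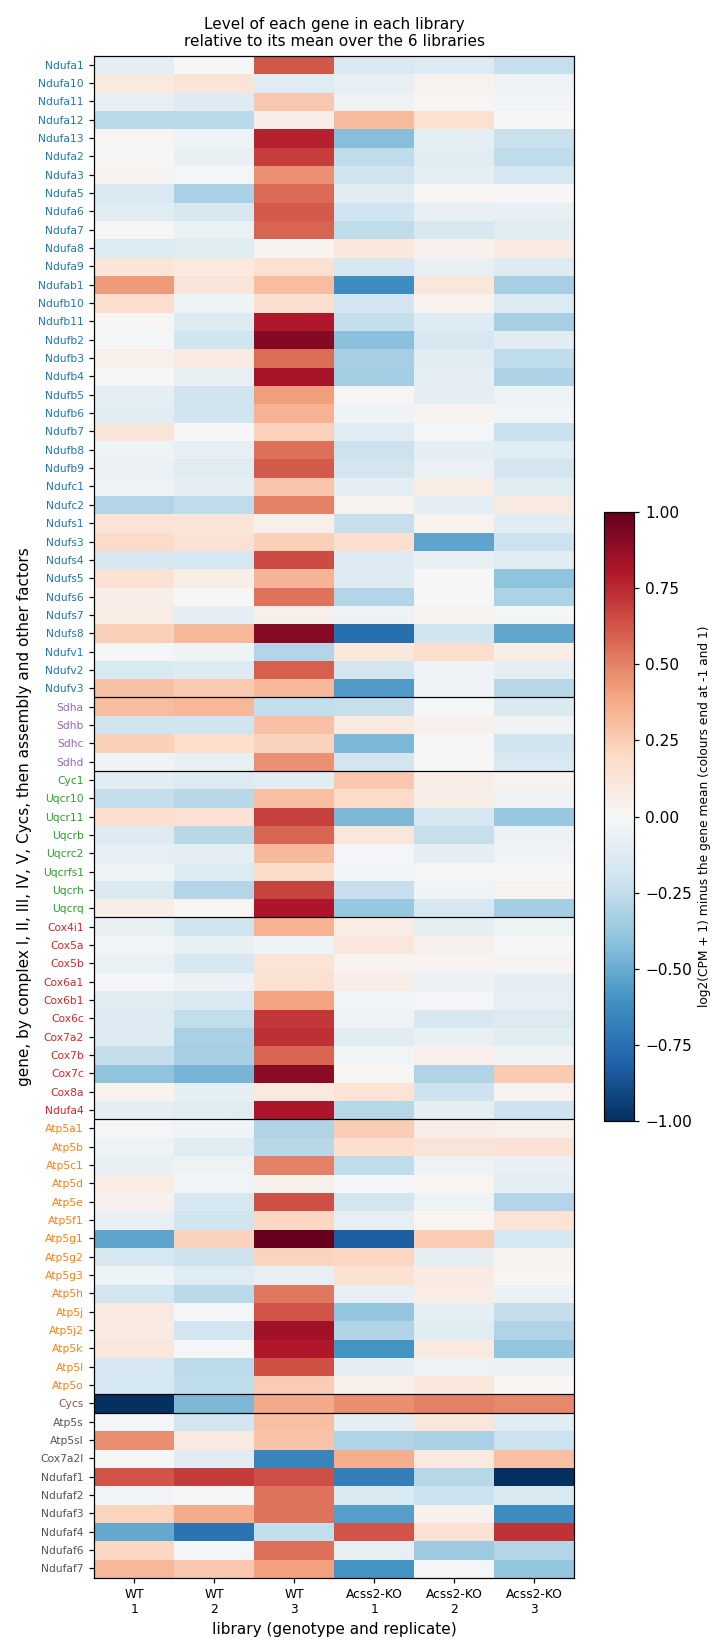
Level of 83 of the 84 tested genes (rows, grouped by complex) in each of the 6 libraries (columns), as log2(CPM + 1) minus the mean of the gene over the libraries. WT replicate 3 is the reddest column: it holds the highest of the 6 values for 61 of the 84 genes.

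Within the WT group, replicate 3 stood apart for these genes. Its log2(CPM + 1) lay a median of 0.49 above the mean of WT replicates 1 and 2 over the 84 genes, whereas the median difference over all tested genes was -0.11. It was the highest of the 6 libraries for 61 of the 84 genes (72.6%), against 19.4% of all tested genes. Cox7c was at 29.7, 28.3 and 74.5 CPM in WT replicates 1 to 3, Ndufb2 at 20.5, 18.0 and 40.2 CPM, and Uqcrh at 149, 134 and 263 CPM. The 3 Acss2-KO libraries stayed close to each other and to WT replicates 1 and 2 for Uqcrh (140, 160 and 169 CPM) and Ndufb2 (15.3, 18.4 and 19.2 CPM). The summed CPM of all 86 genes was 11947, 11527 and 14557 in WT and 12077, 12180 and 11823 in Acss2-KO.

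The excess in WT replicate 3 moved with transcript length. Over all tested genes with a length it had a median of 0.51 for transcripts under 500 nt and fell step by step to -0.36 for those over 5000 nt. Spearman's rho between length and the excess was -0.42 over 9003 genes and -0.43 over the 84 genes, which come from the same libraries and are not independent. The respiratory chain genes were short, with a median of 715 nt against 2314 nt for all tested genes. At matched length they lay above the other genes: between 500 and 750 nt the median was 0.54 for 33 of them and 0.18 for 505 genes in all, and between 1000 and 1500 nt it was 0.35 for 17 and 0.06 for 1150 genes in all. The longer core genes of complex I and the 5 head genes of complex V had medians of 0.05 and 0.02. Other short housekeeping transcripts shared the excess, with medians of 0.70 for 85 cytosolic ribosomal protein genes, 0.44 for 37 proteasome genes and 0.31 for 74 mitochondrial ribosomal protein genes. A cause for this library's difference was not tested.

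**Figure D3:**
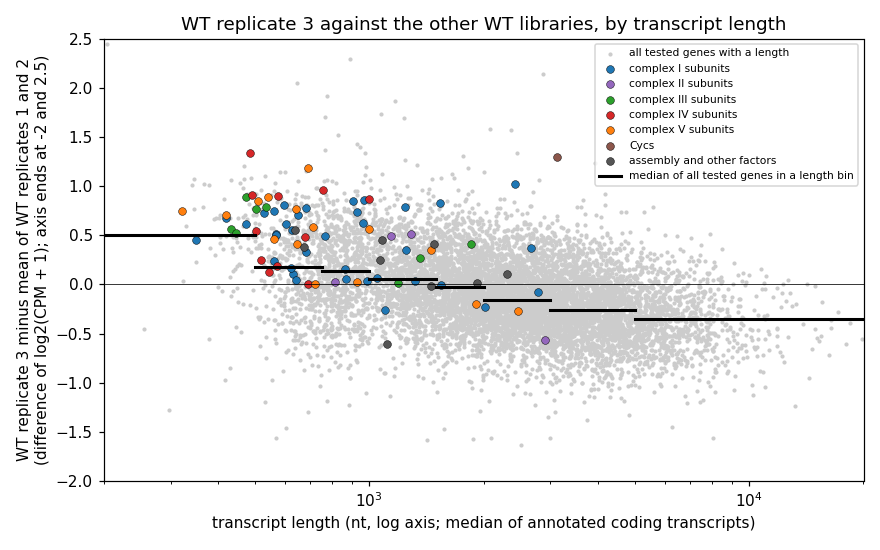
Difference in log2(CPM + 1) between WT replicate 3 and the mean of WT replicates 1 and 2 (vertical axis) against transcript length in nt (horizontal log axis), for all tested genes (grey) and the respiratory chain genes (coloured by complex). Black bars are medians of all tested genes per length bin, from 0.51 under 500 nt to -0.36 over 5000 nt.

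Without WT replicate 3 the median log2 fold change of the 84 genes moved from -0.20 to -0.01, while that of all tested genes moved from -0.12 to -0.14. In that fit 2 of the 84 rose, Ndufaf4 and Cycs (9.77% of all tested genes rose), and 4 fell, Ndufaf1, Ndufs8, Uqcr11 and Atp5sl (21.4% fell). The complex medians were then -0.13 for complex I, -0.24 for complex II, 0.11 for complex III, 0.10 for complex IV and 0.15 for complex V. Read against 0, the signs for complexes III, IV and V therefore depended on this library. Read against the all-gene median, these complexes lay above it with and without WT replicate 3. Complex II lay below it in both fits. Complex I lay below it with all libraries (-0.24 against -0.12) and just above it without WT replicate 3 (-0.13 against -0.14). After median-of-ratios scaling the medians of complexes III, IV and V were 0.00, 0.06 and 0.06. Complexes I and II kept negative medians after that scaling and without WT replicate 3.

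The other subunits of the chain are encoded in mitochondrial DNA, and 13 such genes were measured. Their summed CPM was 34226, 40965 and 70966 in WT and 91991, 79748 and 83724 in Acss2-KO. As a share of all CPM this was 3.43% to 7.12% in WT and 7.99% to 9.22% in Acss2-KO, without overlap. The sums, the share and the ratio include genes at or near the floor in WT replicate 2, described below. The ratio of this sum to that of the nuclear structural subunits was 2.94, 3.65 and 5.004 in WT and 7.89, 6.77 and 7.34 in Acss2-KO (exact permutation test, two-sided p = 0.10, the smallest possible). WT replicate 3 was the highest WT library for all 13 genes as well.

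Of the 13 genes 4 rose and none fell, beside 13.4% and 23.1% of all tested genes. All 3 Acss2-KO libraries lay above WT for 10 genes, beside 20.1% of all tested genes. These counts include 6 genes at or near the floor in WT replicate 2, mt-Atp8 among them. The genes that rose were mt-Nd4, mt-Nd5, mt-Nd6 and mt-Atp8, of which mt-Atp8 was named after its values were seen. The mt-Atp8 call held, among the fits with 1 library left out, only without WT replicate 3 (adjusted p up to 0.235 over the alternatives). For mt-Nd6, the complex I subunit encoded on the light strand, the values were 910, 1010 and 1380 CPM in WT and 2091, 1938 and 2106 CPM in Acss2-KO (log2 fold change 0.92 ± 0.22, adjusted p = 0.013). For mt-Nd5 they were 2837, 3616 and 4421 against 6794, 6427 and 6208 CPM (log2 fold change 0.86 ± 0.22, adjusted p = 0.018). For mt-Nd4 the log2 fold change was 0.97 ± 0.29 (adjusted p = 0.029). These 3 calls were each lost without WT replicate 1 or 2 and without Acss2-KO replicate 3, and that of mt-Nd4 also without Acss2-KO replicate 1, with adjusted p up to 0.111 for mt-Nd5, 0.164 for mt-Nd4 and 0.085 for mt-Nd6 over the alternatives.

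Several mitochondrially encoded genes were nearly missing from WT replicate 2. There mt-Atp6 was at 10.1 CPM, mt-Co2 at 9.58 CPM and mt-Co3 at 11.6 CPM, and mt-Nd3, mt-Nd4l and mt-Atp8 were listed at the floor. In WT replicates 1 and 3 mt-Co2 was at 776 and 2876 CPM, and in Acss2-KO at 5997, 5634 and 5480 CPM. By contrast mt-Co1 was at 10226, 16271 and 27364 CPM in WT. Values that low for subunits of an enzyme every liver cell uses can be failed estimates, so no fold is given for these 6 genes. In WT replicate 1 mt-Atp6 was at 458 CPM, against 5955 to 6889 CPM in Acss2-KO. These genes are part of the summed CPM, the share and the ratio above, so the gap between genotypes there includes such values. The gap without them is not given here. Among the other 7 genes, which include mt-Co1 and mt-Cytb, mt-Nd2 went the other way, at 5673, 5997 and 8079 CPM in WT and 4673, 5833 and 5480 CPM in Acss2-KO (log2 fold change -0.29 ± 0.22, adjusted p = 0.32).

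**Figure D4:**
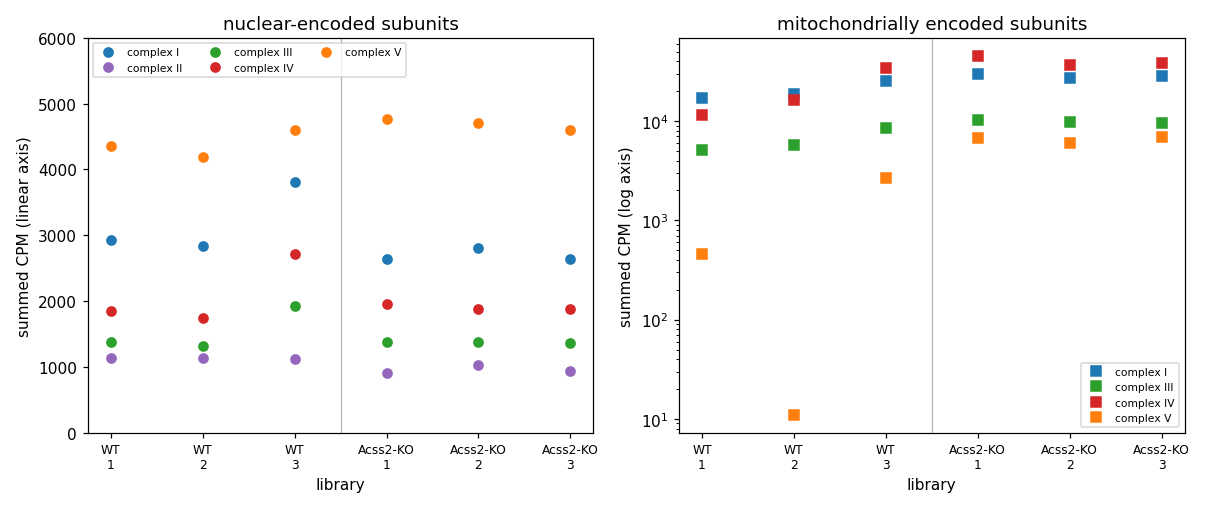
Summed CPM per library (horizontal axis, WT replicates 1 to 3 then Acss2-KO replicates 1 to 3) of nuclear-encoded subunits (left, linear axis from 0) and mitochondrially encoded subunits (right, log axis) by complex. The nuclear sums of complexes I, III and IV peak in WT replicate 3, and the mitochondrially encoded complex V genes sum to 11.1 CPM in WT replicate 2.

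Genes listed as assembly factors outside the symbol rule were read as a list of their own. The list is broad: Fastk, Lrpprc, Slirp and Taco1, listed with complex IV, are not assembly factors in the strict sense. Of these Fastk rose, Taco1 fell, and Lrpprc and Slirp did not pass the test. Of 38 tested factors of complexes I to IV, 2 rose (Hccs and Fastk, the latter also named after its values were seen and lost without WT replicate 2 or 3 or Acss2-KO replicate 1 or 3, with adjusted p up to 0.196) and 18 fell, with a median log2 fold change of -0.58. Together with the 7 under the rule, 3 of 45 rose and 22 fell, against 13.4% and 23.1% of all tested genes. The count that fell was 20 without WT replicate 3 and 19 after median-of-ratios scaling, where 21.4% and 18.9% of all tested genes fell. Leaving out WT replicate 1 or 2 gave 14 and 13, and leaving out Acss2-KO replicate 1 or 3 gave 14 and 11. The share of all tested genes in those single-library fits is not given here. The median level was 18.3 CPM for the assembly factors and 114 CPM for the structural subunits, and the difference in calls between these sets was not tested.

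The membrane arm factors Tmem126b and Timmdc1 had the largest falls for complex I. Tmem126b was at 18.4, 17.7 and 26.7 CPM in WT and 6.64, 7.89 and 6.45 CPM in Acss2-KO (log2 fold change -1.44 ± 0.20, adjusted p = 0.0015). Timmdc1 was at 26.3, 25.8 and 34.1 CPM against 6.87, 13.3 and 11.2 CPM (-1.41 ± 0.24, adjusted p = 0.0035). These 2 form, with Ndufaf1, Acad9 and Ecsit, the mitochondrial complex I assembly complex, a set chosen here after the values were seen. Acad9 fell too (-0.83 ± 0.22, adjusted p = 0.018), a call that was lost without WT replicate 1 or 2 and without Acss2-KO replicate 3 (adjusted p up to 0.138 over the alternatives), and Ecsit, at a log2 fold change of -0.33, did not pass the test (adjusted p = 0.14).

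For complex III, Uqcc1 and Uqcc2, which handle newly made cytochrome b, both fell. Uqcc1 (chromosome 2, 155846894 to 155930310) lies close to Acss2 itself (chromosome 2, 155517948 to 155585724). A part of the altered Acss2 locus in the fall of Uqcc1 was not tested. Uqcc1 was at 38.3, 36.8 and 39.1 CPM in WT and 15.9, 17.4 and 13.9 CPM in Acss2-KO (log2 fold change -1.23 ± 0.16, adjusted p = 0.0011). Uqcc2 was at 16.1, 17.3 and 27.3 CPM against 6.92, 8.28 and 8.22 CPM (-1.24 ± 0.22, adjusted p = 0.0040). No library of one genotype reached the other genotype for either gene.

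Both tested factors of complex II fell, among them Sdhaf2, which attaches the flavin to Sdha (24.8, 24.1 and 27.1 against 10.8, 16.1 and 12.6 CPM, log2 fold change -0.91 ± 0.18, adjusted p = 0.0064). The other, Sdhaf4, fell by 0.88 ± 0.29 on the log2 scale (adjusted p = 0.042), a call lost under 10 of 16 alternatives, among them all 4 rescalings, WT replicate 2 or 3 left out and Acss2-KO replicate 1 or 3 left out (adjusted p up to 0.132). Of the 20 tested genes listed for complex IV, Fastk and Taco1 among them, 8 fell and 1 rose. Coa7 was at 19.03, 19.7 and 23.9 CPM in WT and 9.13, 10.2 and 10.7 CPM in Acss2-KO (-0.99 ± 0.17, adjusted p = 0.0034). Sco1, which delivers copper, was at 11.6, 12.9 and 11.3 CPM against 6.23, 5.35 and 6.23 CPM (-0.90 ± 0.16, adjusted p = 0.0043). The calls of Tmem126b, Timmdc1, Uqcc1, Uqcc2, Sdhaf2, Coa7 and Sco1 held under every alternative in which the gene was tested.

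**Figure D5:**
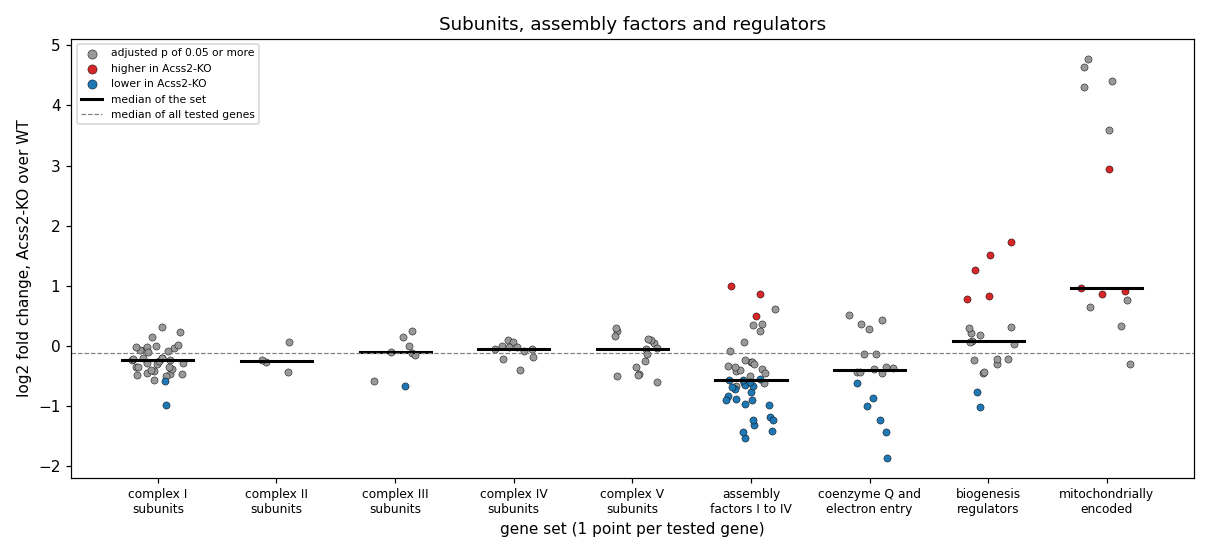
Log2 fold change of Acss2-KO over WT (vertical axis) for each tested gene of 9 sets (horizontal axis), red where higher and blue where lower past the test, with a bar at the median of each set. The subunit sets lie near the dashed all-gene median of -0.12, and the median of the 45 genes listed as assembly factors lies at -0.57. The uppermost mitochondrially encoded points rest on values at or near the floor in WT replicate 2.

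Of 18 tested genes of electron entry and coenzyme Q synthesis, which feed the chain, 6 fell and none rose. At 33.3% called, this list was near the 36.5% of all tested genes. Coq10b, a coenzyme Q binding protein, was at 38.1, 30.7 and 30.5 CPM in WT and 10.6, 5.90 and 9.19 CPM in Acss2-KO (log2 fold change -1.86 ± 0.22, adjusted p = 0.00086). Sqrdl, which passes electrons from sulfide to coenzyme Q, was at 130, 138 and 135 CPM against 41.1, 69.6 and 62.7 CPM (-1.24 ± 0.22, adjusted p = 0.0038). Among 5 tested ATP synthase assembly factors and inhibitors only Atpif1, the inhibitor of ATP hydrolysis by complex V, passed the test, falling from 6.54, 7.67 and 11.004 CPM to 2.73, 3.46 and 3.81 CPM (-1.10 ± 0.23, adjusted p = 0.0071). Of 16 tested organizers of supercomplexes and the inner membrane 1 fell, Taz, the cardiolipin remodelling enzyme (-0.48 ± 0.16, adjusted p = 0.046), and that call was lost without any single library (adjusted p up to 0.168 over the alternatives).

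Of 20 tested nuclear regulators of mitochondrial genes 5 rose and 2 fell, a share of 35.0% that was near the 36.5% of all tested genes. Pprc1, a coactivator related to PGC-1alpha, was at 20.1, 14.3 and 11.2 CPM in WT and 69.6, 32.2 and 60.5 CPM in Acss2-KO (log2 fold change 1.73 ± 0.31, adjusted p = 0.0042). Ppargc1b, which encodes PGC-1beta, was at 6.68, 6.23 and 4.41 CPM against 30.7, 11.7 and 16.2 CPM (1.51 ± 0.32, adjusted p = 0.0080). In both genes all Acss2-KO libraries exceeded WT and replicate 2 was the lowest of them. Nrip1, a corepressor of nuclear receptors, rose by 1.26 ± 0.25 (log2, adjusted p = 0.0058).

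Esrra, the receptor ERRalpha, was at 29.9, 28.0 and 28.3 CPM in WT and 69.1, 32.2 and 56.5 CPM in Acss2-KO (0.78 ± 0.26, adjusted p = 0.043). Its call was lost without any single WT library and without Acss2-KO replicate 1 or 3 (adjusted p up to 0.184 over the alternatives). Gabpb1, a GABP subunit named after its values were seen, rose from 9.0, 7.41 and 10.5 CPM to 19.03, 13.4 and 17.6 CPM (0.82 ± 0.20, adjusted p = 0.013, and up to 0.095 without Acss2-KO replicate 3 or the other alternatives). Its paralogue Gabpb2, also named after its values were seen, went the other way and did not pass the test. It was at 36.8, 30.1 and 34.1 against 22.6, 26.4 and 23.8 CPM, without overlap (-0.45 ± 0.16, adjusted p = 0.051). The 2 that fell were Mterf4 (-1.02 ± 0.18, adjusted p = 0.0039), which acts on mitochondrial ribosomes, and Polg2 (-0.77 ± 0.21, adjusted p = 0.020), a subunit of the mitochondrial DNA polymerase, the latter named after its values were seen and lost without replicate 3 of either genotype or WT replicate 1 (adjusted p up to 0.096).

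Of the genes that encode the factors searched for in the promoters, Nrf1, Gabpa and Yy1 did not pass the test. Nrf1 was at 10.3, 9.0 and 8.11 CPM in WT and 13.8, 9.58 and 11.6 CPM in Acss2-KO (log2 fold change 0.32 ± 0.19, adjusted p = 0.21). Gabpa had 0.21 ± 0.16 (adjusted p = 0.31) and Yy1 0.03 ± 0.17 (adjusted p = 0.91). Ppargc1a, which encodes PGC-1alpha, was at 18.5, 11.3 and 16.1 CPM in WT and 17.6, 8.17 and 13.7 CPM in Acss2-KO, which overlap (-0.24 ± 0.28, adjusted p = 0.53). Tfam, which packages and transcribes mitochondrial DNA, was at 53.8, 51.3 and 58.5 CPM against 38.3, 45.2 and 36.8 CPM, without overlap (-0.44 ± 0.16, adjusted p = 0.060). It passed without Acss2-KO replicate 2 (adjusted p = 0.037).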

How the data were processed

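Liver RNA-seq of 3 WT and 3 Acss2-KO libraries was analysed from 1 deposited table. Its per-library values are log2 CPM, rounded by the authors to 2 decimals and listed at 0 where they would fall below 1 CPM, as read from the deposited values. The table also holds the authors' own deposited p-values, adjusted p-values and log2 fold changes, by a tool not given in the sources used here. The submitters' processing notes name Bowtie 0.12.2 and mm8 without saying what each did. The deposited coordinates follow GRCm38: all 86 genes shared their chromosome with RefSeq GRCm38.p6, and 59 had both ends within 100 bp.

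Deposited values were raised to CPM (a listed 0 became 1 CPM). Genes averaging 5 CPM or more (9355) entered a limma 3.58.1 fit of log2(CPM + 1) in R 4.3.3, robust and with a variance trend, without covariates. P-values were adjusted by Benjamini-Hochberg, and calls were made below 0.05. Changes of low genes come out too small on this scale. Errors are SE. The design named a count model for counts, but the file holds normalized values and whole reads could not be recovered from 2 decimals, so none was run. Depth was estimated from the steps between low values, and the procedure was tested on simulated data.

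Transcript lengths are medians of a gene's coding transcripts in GENCODE M1, by Ensembl identifier. Of the 86 genes, 83 matched RefSeq by symbol and 3 by an older symbol.

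Genes given in full were, per complex, up to 4 past the threshold, the most abundant, the largest against the median, paralogue groups, core and complex II subunits, Cycs and Cyc1, and of each other list up to 3 with the smallest p and 7 regulators. The other genes past the threshold and further examples were added after their values were seen. The values of 1 core subunit are not reported here. The genes and lists were chosen with earlier results of these data known. Alternatives were 2 pseudocounts, 4 scalings, no filter, a minimum of 20 CPM, the replicate number as a block, libraries left out, and, chosen after seeing the data, library totals without mitochondrially encoded genes.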

Additional observations from a re-analysis of the deposited data

How the results depend on the processing

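Each count here is of all genes past the threshold in that fit, which need not be the genes called above. Of all tested genes 23.1% fell in the main fit, 18.9% after median-of-ratios scaling and 21.4% without WT replicate 3. The share in the other fits below is not given here. These counts therefore do not show whether genes of the chain moved apart from all tested genes. The number of genes of the chain that fell, 7, became 4 after upper-quartile scaling, 4 after trimmed-mean scaling, 3 after quantile normalization, 4 with a minimum of 20 CPM and 3 without WT replicate 2 and Acss2-KO replicate 1 together. With each library left out in turn the count ran from 2 to 9. The single rise became 2 after median-of-ratios, upper-quartile, trimmed-mean and quantile scaling, and 1 to 2 with single libraries left out. The number of structural subunits that fell, 3, became 1 after each of the 4 scalings, 1 without the pair of libraries, and 1 to 5 without single libraries, and 0 rose throughout. Of the assembly factors the 22 falls became 7 with a minimum of 20 CPM, which leaves fewer genes tested, and 12 without the pair of libraries, and ran from 11 to 23 without single libraries. Their 3 rises became 5 after quantile normalization and 1 without the pair, and ran from 1 to 4 without single libraries. The complex II median log2 fold change was -0.0615 after quantile normalization. Without single libraries the complex III median ran from -0.23 (WT replicate 2 left out) to 0.11 (WT replicate 3 left out). The cause of these shifts was not tested.

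Same-numbered libraries correlated at -0.10, -0.14 and 0.09 in their deviations. With 3 libraries per genotype such values cannot show whether the replicate numbers pair libraries. With the replicate number as a block 2 genes of the chain rose and 7 fell, beside 13.5% and 22.8% of all tested genes. In that fit Cycs passed the test, and Hccs and Taz did not. Reversed signs were seen in 2 genes that never passed the test: Ppargc1a, from -0.46 to 0.049 without single libraries, and Yy1, from -0.063 to 0.14 without single libraries and -0.0145 without the pair. Over 45 named genes and 744 values under alternatives, 615 kept direction and side of the threshold, 116 lost the threshold, 8 gained it and 5 reversed. A count model was not run, since the file holds no counts. The 3 libraries per genotype limit the precision, as the intervals above show.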

Other observations

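The mitochondrial ribosomal proteins, which translate the mitochondrially encoded subunits, were read as a further set chosen after seeing the data. Of 74 tested genes 2 rose and 26 fell in Acss2-KO, with a median log2 fold change of -0.38, beside 13.4% and 23.1% of all tested genes and a median of -0.12. The count that fell was 16 without WT replicate 3, where 21.4% of all tested genes fell, and 15 after median-of-ratios scaling, where 18.9% did. In both fits the share that fell was near that of all tested genes. The count that fell was 14 and 15 without WT replicates 1 and 2, and 12, 28 and 11 without Acss2-KO replicates 1, 2 and 3. The share of all tested genes in those fits is not given here.

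The cytosolic ribosomal proteins, with 85 tested genes, had 4 rises and 3 falls and a median log2 fold change of 0.23. Without WT replicate 3 the rises numbered 30, where 9.77% of all tested genes rose, and the median was 0.49. With Acss2-KO replicate 1 or 3 left out there were 0 rises. These counts therefore depended on single libraries.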
